A study of Mus musculus with 15 samples.

Results

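The 10 genes described here are known from the secretory acinar cells of the lacrimal gland and were followed through 15 RNA-Seq libraries of mouse conjunctival tissue. They were picked by symbol out of the 55487 genes counted. Of these, 6 were classed as acinar-restricted (Bhlha15, Car6, Dmbt1, Pip, Lpo and Pnliprp1), and 4 are secretory genes that many epithelia express (Chrm3, Aqp5, Elf5 and Ccl28). The word restricted is a label that came with the list of genes. That list was chosen with earlier results of these data known. Dmbt1 is also a protein of mucosal secretions, and Car6 and Dmbt1 followed the other restricted genes less closely. All 10 were above the filter on low counts and were tested among 19006 genes. All mice were female, WT for genotype and of the BALB/c strain (BALC/c in the labels), and were 9 to 12 weeks old. Every mouse, controls included, had been sensitized on the ear skin with MC903 (calcipotriol) plus OVA. The eyes were then challenged daily for 7 days (days 18 to 24) with PBS and no named antibody (PBS group, n = 5), with OVA under an isotype control antibody (isotype group, n = 5), or with OVA under an anti–IL-4Rα antibody (anti–IL-4Rα group, n = 5). Each antibody was given at 25 mg/kg. The PBS group therefore differed from both other groups in the challenge and in the antibody given, and only the comparison of anti–IL-4Rα with isotype differed in the antibody alone.

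Acinar cells make up most of the lacrimal gland and release the watery and proteinaceous part of the tear film. Acetylcholine from parasympathetic nerves acts on muscarinic receptors of these cells, calcium rises, protein granules fuse with the apical membrane, and ions and water follow through channels. The gland lies outside the conjunctiva proper, although accessory lacrimal lobules and duct openings reach the fornix. The labels name conjunctiva and do not mention lacrimal tissue. In the conjunctiva itself, stratified epithelium with Krt4 and Krt13 and goblet cells with Muc5ac prevail.

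The libraries held 48622246 to 87745024 counts. Counts are given here per 1000000 counts (CPM), scaled with TMM factors that ran from 0.803 to 1.11. The lowest factors, 0.803 to 0.867, were those of anti–IL-4Rα replicates 4, 5 and 1, the libraries with the highest level of the acinar genes. The defining markers of the labelled tissue were present throughout, with Krt13 at 554 to 1180 CPM, Krt4 at 516 to 1180 CPM and Muc5ac at 994 to 2020 CPM. For the acinar-restricted genes 1 library of each group stood apart, namely PBS replicate 1, isotype replicate 2 and anti–IL-4Rα replicate 3, and PBS replicate 3 was nearly as low as PBS replicate 1. Results are given with these libraries, and the counts of calls are also given without them. In RNA from whole tissue, fewer acinar cells and less RNA per acinar cell cannot be told apart.

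Upstream sequence of 4 members is shown first, because 3 of them (Pip, Pnliprp1 and Bhlha15) varied together from library to library and the fourth (Ccl28) was the broadly expressed gene that followed them most closely. The 250 bases before the RefSeq start on GRCm38.p6 are printed on the gene's own strand, at chr6:41847299-41847548 for Pip, chr19:58728637-58728886 for Pnliprp1, chr5:144190036-144190285 for Bhlha15 and chr13:119623569-119623818 for Ccl28, all on the plus strand. Capitals mark a TATA box (TATAAA, on the gene's strand) or an E-box (CAGCTG, which reads the same on both strands).
Pip: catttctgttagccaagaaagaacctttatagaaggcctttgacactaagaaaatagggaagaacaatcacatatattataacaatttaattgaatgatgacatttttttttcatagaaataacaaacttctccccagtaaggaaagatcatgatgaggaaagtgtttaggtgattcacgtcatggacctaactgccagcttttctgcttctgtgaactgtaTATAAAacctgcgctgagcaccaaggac
Pnliprp1: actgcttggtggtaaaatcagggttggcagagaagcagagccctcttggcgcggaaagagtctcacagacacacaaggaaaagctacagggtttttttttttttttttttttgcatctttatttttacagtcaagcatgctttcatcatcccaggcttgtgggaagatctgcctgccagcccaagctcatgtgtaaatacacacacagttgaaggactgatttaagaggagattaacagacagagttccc
Bhlha15: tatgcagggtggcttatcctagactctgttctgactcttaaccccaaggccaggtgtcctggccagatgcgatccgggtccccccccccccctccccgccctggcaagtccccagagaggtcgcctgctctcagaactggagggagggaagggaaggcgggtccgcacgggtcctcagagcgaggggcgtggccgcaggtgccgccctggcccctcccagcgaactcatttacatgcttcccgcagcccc
Ccl28: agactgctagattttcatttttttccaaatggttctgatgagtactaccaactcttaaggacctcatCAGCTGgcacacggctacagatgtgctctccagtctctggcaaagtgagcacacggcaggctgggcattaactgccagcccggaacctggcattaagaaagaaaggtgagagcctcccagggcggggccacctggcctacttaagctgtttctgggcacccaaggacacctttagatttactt
The table of 32851 RefSeq promoters gave windows for 9 of the 10 members, and 10 windows in all, since Elf5 has a pair of starts. Dmbt1 had no entry. Pip held TATAAA 28 bases before its start, a motif that 7.59% of all promoters held in the same 250 bases. CAGCTG was in 3 of the 10 windows (Car6, Ccl28 and one of Elf5) and in 13% of all promoters. CATATG, another E-box, was in 0 of the 10 windows and in 3.46% of all promoters. GGAAGT on either strand, a core read by ETS factors such as Elf5, was in 1 window (Aqp5) and in 19.7% of all promoters. The share of G and C was 36.0% for Pip, 42.0% for Lpo, 43.6% for Pnliprp1, 52.4% for Car6 and 66.8% for Bhlha15, against 78.4% for Aqp5 and a median of 52.4% over all promoters. Several windows lay largely inside the gene as annotated, whose start differs from that of RefSeq. This held for 246 of the 250 bases for Aqp5, 197 for Car6, and all 250 for Lpo and for each Elf5 window. For the Elf5 window with CAGCTG, the bases checked after the start were not found in an annotated transcript of the gene. A match describes the letters of the window only.

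Bhlha15 (Mist1; chr5:144190286-144194441, plus strand), the basic helix-loop-helix factor that keeps the granule-secreting state of acinar cells, was measured at 1.06, 8.18, 1.43, 20.9 and 126 CPM in PBS replicates 1 to 5. The isotype libraries 1 to 5 held 95.4, 1.15, 20.5, 70.9 and 14.9 CPM, and the anti–IL-4Rα libraries held 333, 159, 6.13, 422 and 392 CPM. In the PBS and isotype groups the lowest and the highest library thus lay 119-fold and 83.2-fold apart, and the groups overlapped. In the anti–IL-4Rα group 4 of the 5 libraries were above every isotype and every PBS library, and replicate 3 lay below the median of both.

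Pip (chr6:41847535-41852065, plus strand) encodes prolactin-inducible protein, a small protein secreted into tears and saliva. Its levels were 0.0412, 153, 1.88, 337 and 2320 CPM in the PBS libraries 1 to 5 and 1560, 0.0512, 319, 1480 and 238 CPM in the isotype libraries. The anti–IL-4Rα libraries held 4800, 2580, 44.8, 6840 and 6110 CPM. PBS replicate 1 held 3 Pip counts and isotype replicate 2 held 5, so that Pip was at a trace in 1 library of each of these groups and among abundant transcripts in others. PBS replicate 5 exceeded PBS replicate 1 by 56300-fold (95% counting interval 19300 to 273000), and isotype replicate 1 exceeded isotype replicate 2 by 30500-fold (13100 to 94100). These exact intervals cover counting error only.

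Lpo (chr11:87806428-87828289, minus strand), which encodes the antimicrobial enzyme lactoperoxidase, had 1.65, 32.2, 2.41, 102 and 648 CPM in the PBS libraries and 466, 1.25, 81.6, 398 and 65.4 CPM in the isotype libraries. The anti–IL-4Rα libraries had 1530, 751, 12.9, 2170 and 2200 CPM. The order of the libraries was the same as for Pip within the PBS and isotype groups. In the anti–IL-4Rα group only the top pair, replicates 4 and 5, changed places.

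Pnliprp1 (chr19:58728887-58744169, plus strand), a relative of pancreatic lipase, ran from 0.357 to 625 CPM with a median of 37.9 in the PBS group, from 0.501 to 388 with a median of 68.4 in the isotype group, and from 11.6 to 2690 with a median of 1720 in the anti–IL-4Rα group. Car6 (chr4:150187015-150201332, minus strand), the secreted carbonic anhydrase of tears and saliva, had 17.7, 48.4, 12.4, 76.5 and 476 CPM in the PBS libraries, 279, 49.6, 179, 180 and 56.9 CPM in the isotype libraries and 867, 441, 30.0, 1360 and 1440 CPM in the anti–IL-4Rα libraries. Car6 did not drop to a trace where Pip did. Dmbt1 (chr7:131032053-131121630, plus strand), a scavenger receptor cysteine-rich protein of mucosal secretions, had medians of 16.8, 36.9 and 104 CPM in the PBS, isotype and anti–IL-4Rα groups and a lowest value of 3.63 CPM in anti–IL-4Rα replicate 3. Its gene body overlaps that of Fgfr2 on the other strand, and since the use of strand in counting was not stated, reads of the pair may have been split between them.

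**Figure D1:**
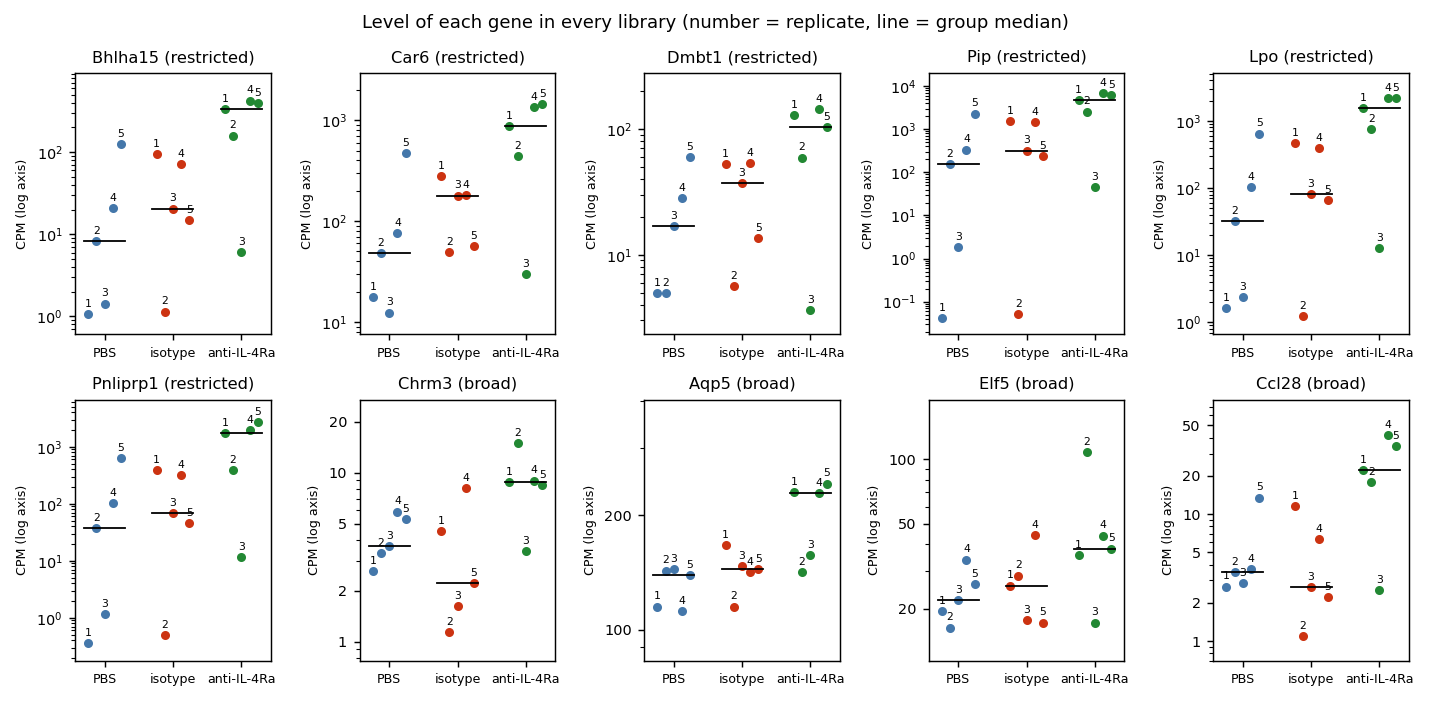
Level of each of the 10 genes in each library in CPM on a log axis, by group, with the replicate number above each point and a line at the group median. The 6 restricted genes spread over 1 or more orders of magnitude within each group in nearly every panel, with the same replicates at the bottom, whereas Aqp5 stayed between 112 and 242 CPM.

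The same libraries were low in gene after gene. Isotype replicate 2 and anti–IL-4Rα replicate 3 had the lowest level of their groups for 6 of the 6 restricted genes, and PBS replicate 1 for 5 of 6, with PBS replicate 3 lowest for Car6. PBS replicate 5 was the highest PBS library for all 6. Together the 6 genes made up 0.00278% of the counts in PBS replicate 1 and 0.417% in PBS replicate 5, and 1.06% in anti–IL-4Rα replicate 5. The 4 broadly expressed genes made up 0.0151% to 0.0264% in every library.

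Ratios between restricted genes within a library were not constant. Pip stood at 2.77 to 4.76 times the CPM of Lpo in 12 libraries, but at 0.0250 times in PBS replicate 1, 0.0410 times in isotype replicate 2 and 0.779 times in PBS replicate 3. Car6 went the other way, at 0.451 to 2.33 times Lpo in those 12 libraries and at 10.7, 39.7 and 5.15 times Lpo in the same 3. Dmbt1 was at 0.0472 to 0.453 times Lpo in the 12 libraries and at 3.0 to 6.96 times in the 3. In those 3 libraries Car6 and Dmbt1 thus were not low in proportion to Lpo, and Pip was lower than in proportion. Bhlha15 and Pnliprp1 moved less against Lpo, but the same 3 libraries stood apart. Bhlha15 was at 0.178 to 0.476 times Lpo in the 12 libraries and at 0.596 to 0.918 times in the 3. Pnliprp1 was at 0.517 to 1.22 times Lpo in the 12 and at 0.217 to 0.478 times in the 3.

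An acinar score, the mean log2 CPM of the 6 restricted genes, summed this up in 1 value per library. It was 0.38, 4.75, 1.79, 6.19 and 8.60 in PBS replicates 1 to 5, 8.08, 0.71, 6.30, 7.82 and 5.49 in isotype replicates 1 to 5, and 9.78, 8.58, 3.69, 10.17 and 10.15 in anti–IL-4Rα replicates 1 to 5. In the anti–IL-4Rα group 3 libraries were above every library of the other groups, replicate 2 was just under PBS replicate 5, and replicate 3 was below 3 PBS and 4 isotype libraries. Over the 15 pairs of restricted genes, Pearson's r of log2 CPM centred within groups ran from 0.75 (Pip with Dmbt1) to 1.0 (Bhlha15 with Lpo), with a median of 0.90 over 15 libraries, each of which gives all 6 genes from the same RNA. Per unit of the mean of the other 5 genes, Pip moved by 1.82 ± 0.22 (least-squares slope ± SE), Pnliprp1 by 1.35 ± 0.05, Lpo by 1.15 ± 0.03, Bhlha15 by 0.84 ± 0.03, Car6 by 0.51 ± 0.08 and Dmbt1 by 0.45 ± 0.09.

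The spread within groups set the 6 restricted genes apart from nearly all genes measured. The SD of log2 CPM within groups was 5.20 for Pip, 3.88 for Pnliprp1, 3.41 for Lpo, 2.64 for Bhlha15, 1.91 for Car6 and 1.77 for Dmbt1, against a median of 0.18 over 19006 genes. Only 8 genes had a larger SD than Pip, and 174 a larger one than Dmbt1. Among the broadly expressed genes the SD was 1.32 for Ccl28, 0.83 for Chrm3, 0.68 for Elf5 and 0.26 for Aqp5, and 6957 genes had a larger SD than Aqp5.

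**Figure D2:**
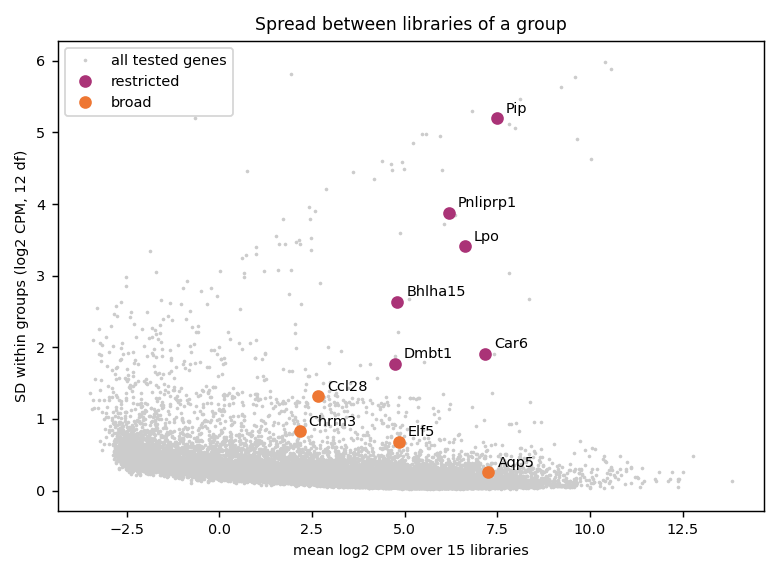
SD of log2 CPM within groups (vertical axis, 12 degrees of freedom) against the mean log2 CPM over 15 libraries (horizontal axis) for every tested gene in grey, with the restricted genes in purple and the broadly expressed genes in orange. The restricted genes lie at SDs of 1.77 to 5.20, far above the grey band, and Aqp5 lies within it at 0.26.

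Among the broadly expressed genes, Chrm3 (chr13:9875486-10360847, minus strand) encodes the M3 muscarinic receptor, through which acetylcholine drives tear secretion. It had 2.63, 3.33, 3.68, 5.89 and 5.32 CPM in the PBS libraries, 4.52, 1.14, 1.62, 8.07 and 2.22 CPM in the isotype libraries and 8.76, 14.9, 3.45, 8.99 and 8.43 CPM in the anti–IL-4Rα libraries. Anti–IL-4Rα replicates 1, 2, 4 and 5 were above every isotype library, and replicate 3 was between isotype replicates 5 and 1. The groups overlapped.

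Aqp5 (chr15:99590782-99594829, plus strand), the apical water channel of lacrimal and other exocrine cells and of the corneal epithelium, was the steadiest member. It had 115, 143, 144, 112 and 139 CPM in the PBS libraries, 167, 115, 147, 142 and 144 CPM in the isotype libraries and 230, 142, 157, 229 and 242 CPM in the anti–IL-4Rα libraries. Anti–IL-4Rα replicates 1, 4 and 5 were above all other libraries, and replicates 2 and 3 fell inside the isotype range. Isotype replicate 2, where Pip was at a trace, still held 11194 Aqp5 counts.

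Elf5 (chr2:103411688-103450989, plus strand), an ETS-family factor of glandular and other epithelia, ran from 16.3 to 33.9 CPM over the PBS libraries and from 17.2 to 44.1 CPM over the isotype libraries. The anti–IL-4Rα libraries held 35.7, 108, 17.2, 43.9 and 38.2 CPM, so that 1 library, replicate 2, was far above the other 14. Pearson's r of Elf5 with the 6 restricted genes was 0.27 to 0.53 over the 15 libraries.

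Ccl28 (chr13:119623819-119654359, plus strand), the epithelial chemokine that attracts IgA-secreting plasma cells to mucosae and glands, had 2.68, 3.50, 2.87, 3.69 and 13.5 CPM in the PBS libraries, 11.6, 1.09, 2.64, 6.32 and 2.22 CPM in the isotype libraries and 22.1, 17.8, 2.52, 41.6 and 34.4 CPM in the anti–IL-4Rα libraries. Its order of libraries was that of Pip and Bhlha15 in each of the 3 groups. The 7 libraries with the highest acinar score were the 7 with the most Ccl28, at 6.32 to 41.6 CPM, and the other 8 held 1.09 to 3.69 CPM.

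Per kilobase of exon, the median levels over the 15 libraries were 141 CPM per kb for Pip, 98.7 for Car6, 55.2 for Aqp5, 45.2 for Pnliprp1, 32.4 for Lpo, 5.97 for Bhlha15, 5.23 for Dmbt1, 4.44 for Elf5, 0.762 for Ccl28 and 0.722 for Chrm3. The ranges over the libraries overlapped between all neighbours in this order. In the PBS group Aqp5 (median 53.5 CPM per kb) stood next to Pip (64.1), and in the anti–IL-4Rα group Pip (2010) was far above Aqp5 (88.1).

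The comparison of isotype with PBS addressed the ocular OVA challenge in sensitized mice, together with the isotype antibody that the PBS group is not said to have received. None of the 10 members passed an adjusted p under 0.05 (edgeR's quasi-likelihood test, Benjamini-Hochberg over all genes), where 17.0% of all genes did, and 0 of 10 had an unadjusted p under 0.05. The log2 fold changes of the 6 restricted genes were 0.11 to 0.50 with SEs of 0.86 to 1.81, and those of the 4 broadly expressed genes were -0.25 to 0.18 with SEs of 0.15 to 0.72. The widest uncertainty was that of Pip, whose fold change of 1.28 had an approximate 95% interval (normal, from the SE) of 0.109 to 15. The narrowest was that of Aqp5, 1.09 with an interval from 0.893 to 1.34. No member had groups without overlap, against 12.3% of all genes. Leaving out 1 library at a time turned the sign for 7 members. Without isotype replicate 1 alone, Bhlha15, Car6, Pip, Lpo and Pnliprp1 were at -0.24, -0.12, -0.15, -0.21 and -0.49. DESeq2 also called 0 of 10.

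The comparison of anti–IL-4Rα with isotype addressed the antibody under the same OVA challenge. All 10 members had a higher mean in the anti–IL-4Rα group, but only Aqp5 passed the test, and it had the smallest fold change. Aqp5 rose from 143 ± 18.7 CPM (SD, n = 5) to 200 ± 46.6 CPM, or by 0.48 ± 0.15 (SE) on the log2 scale, and edgeR's quasi-likelihood test gave an adjusted p of 0.0444. Thus 1 of 10 members was called higher, where 6.73% of all genes were called higher and 14.9% in either direction. The exact permutation test over libraries gave two-sided p = 0.0635 for Aqp5, and p = 0.0476 for each of Chrm3 and Ccl28, the 2 members under 0.05 in it, with 0.00794 as the smallest value that 5 against 5 libraries allow.

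The 6 restricted genes had log2 fold changes of 1.44 (Dmbt1) to 3.03 (Pnliprp1), with a median of 2.60 beside 0.009 over all genes tested, and adjusted p of 0.116 to 0.374. Pip stood at 720 ± 742 CPM in the isotype group and 4070 ± 2780 CPM in the anti–IL-4Rα group, a 5.66-fold difference with a 95% interval (from the SE) of 0.421 to 76.1. Bhlha15 differed 6.48-fold (interval 1.06 to 39.5), Lpo 6.58-fold (0.764 to 56.7), Car6 5.57-fold (1.35 to 22.9) and Pnliprp1 8.16-fold (0.774 to 86.1). Of these 5 genes 4 had 4 anti–IL-4Rα libraries above every isotype library, Pnliprp1 had 3, and in each replicate 3 was inside the isotype range or below it. The intervals above assume a normal distribution and are too narrow for 5 libraries a group. For Bhlha15 the interval excludes 1, yet edgeR's quasi-likelihood test gave an unadjusted p of 0.0619. Ccl28 differed by 2.32 ± 0.75 on the log2 scale with an adjusted p of 0.0509 in edgeR's quasi-likelihood test, Chrm3 by 1.35 ± 0.49 (0.0765) and Elf5 by 0.87 ± 0.40 (0.149). Without anti–IL-4Rα replicate 2 the Elf5 difference was 0.34 against isotype and 0.52 against PBS.

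The comparison of anti–IL-4Rα with PBS shares the anti–IL-4Rα libraries with the one before and is not separate evidence. All 10 members again had a higher mean with anti–IL-4Rα, and Aqp5 was again the only one called. It differed from 131 ± 15.7 CPM by 0.61 ± 0.15 on the log2 scale (adjusted p = 0.0398 in edgeR's quasi-likelihood test, against p = 0.0238 in the two-sided exact permutation test). Here too 1 of 10 members was called, where 2.28% of all genes were called higher and 3.72% in either direction. The 6 restricted genes had log2 fold changes of 1.94 to 3.14, median 2.96 beside -0.004 over all genes, with adjusted p of 0.141 to 0.408. Without PBS replicate 5 they were 5.07 for Bhlha15, 4.42 for Car6, 5.05 for Pip and 5.27 for each of Lpo and Pnliprp1. Ccl28 differed by 2.17 ± 0.74 (adjusted p = 0.103), Chrm3 by 1.10 ± 0.49 (0.194) and Elf5 by 1.05 ± 0.41 (0.140) in the same test. In neither of these comparisons did any member have groups without overlap, against 7.31% of all genes for anti–IL-4Rα with isotype and 6.10% for anti–IL-4Rα with PBS.

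**Figure D3:**
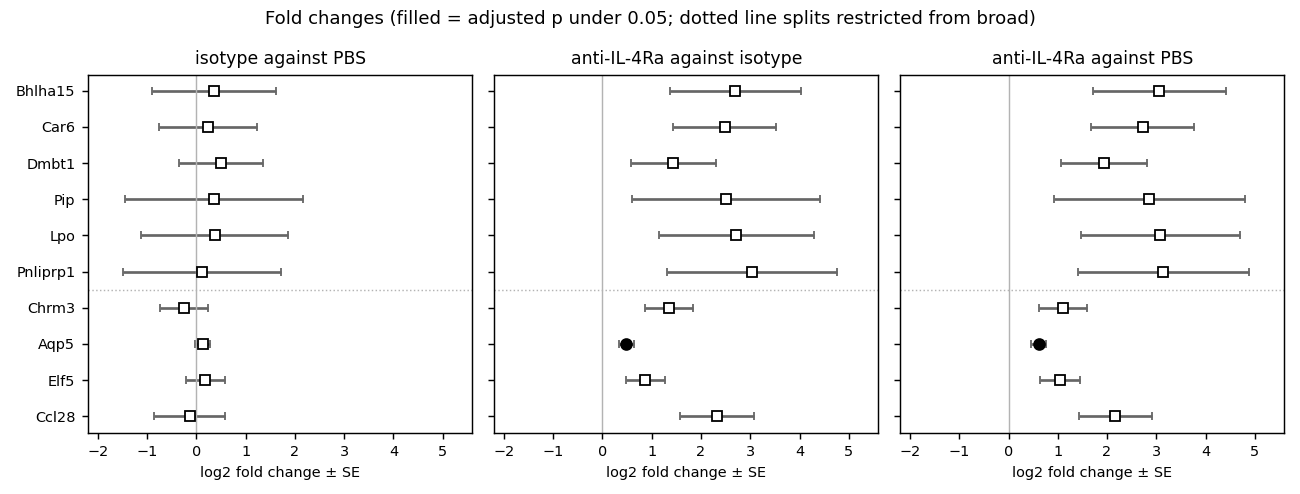
Log2 fold change ± SE of the 10 members in the 3 comparisons from edgeR's quasi-likelihood fit, with filled circles where the adjusted p was under 0.05. The 6 restricted genes above the dotted line have SEs of 0.86 to 1.94, wider than those of the 4 genes below it, and the only filled circles are those of Aqp5, with SEs of 0.15.

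The fold change of Aqp5 was steadier than its call. With 1 library left out it stayed at 0.41 to 0.59 on the log2 scale against isotype and 0.54 to 0.72 against PBS. Aqp5 was also called with upper quartile factors and with DESeq2 in both comparisons. With library totals in place of TMM factors, the median of all genes was at -0.22 against isotype and Aqp5 at 0.23 (adjusted p = 0.133), and against PBS the median was at -0.23 and Aqp5 at 0.36 (adjusted p = 0.0388), all from edgeR's quasi-likelihood test. Leaving out 1 library ended the Aqp5 call against isotype in 12 of 15 fits, all but those without isotype replicate 1, anti–IL-4Rα replicate 2 or anti–IL-4Rα replicate 3, at adjusted p of 0.0180 to 0.108. Against PBS it ended the call in 9 of 15 fits, all but those without PBS replicate 5, isotype replicates 1, 2 or 5, or anti–IL-4Rα replicates 2 or 3. Calls over all genes moved as well, to 0.433% against PBS without PBS replicate 1 or 2. Without anti–IL-4Rα replicate 3, 5 members were called against isotype (Chrm3, Ccl28, Aqp5, Elf5 and Car6), and 3 against PBS (Ccl28, Aqp5 and Elf5), in fits that called 22.2% and 10.7% of all genes. Without PBS replicate 5, 3 members were called against PBS (Ccl28, Aqp5 and Car6), beside 4.56% of all genes. DESeq2 called 4 against isotype (Chrm3, Ccl28, Aqp5 and Car6) and 3 against PBS (Ccl28, Aqp5 and Car6), beside 21.2% and 10.3% of all genes. Without the lowest library of each group in the acinar score, 2 members were called against isotype and 2 against PBS, Aqp5 and Ccl28 each time, beside 16.7% and 9.27% of all genes. Bhlha15, Dmbt1, Pip, Lpo and Pnliprp1 were called in none of the fits run.

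How far the broadly expressed genes moved with the restricted genes was measured as a slope on the acinar score, with terms for the groups in the fit. Ccl28 had the steepest slope, 0.385 ± 0.060 log2 units per unit of score (SE), followed by Chrm3 at 0.217 ± 0.057, Elf5 at 0.074 ± 0.061 and Aqp5 at 0.048 ± 0.020. The Elf5 slope was 0.025 without anti–IL-4Rα replicate 3 and 0.128 without isotype replicate 2. Pearson's r with the score was 0.88 for Ccl28, 0.75 for Chrm3, 0.56 for Aqp5 and 0.38 for Elf5 over the 15 libraries centred within groups, and 138 of 19000 genes outside the score had a higher r than Ccl28. With the score as a covariate, 0 of the 4 broadly expressed genes were called in any comparison, and Aqp5 was at 0.35 (adjusted p = 0.175) against isotype and 0.40 (0.231) against PBS in edgeR's quasi-likelihood test.

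**Figure D4:**
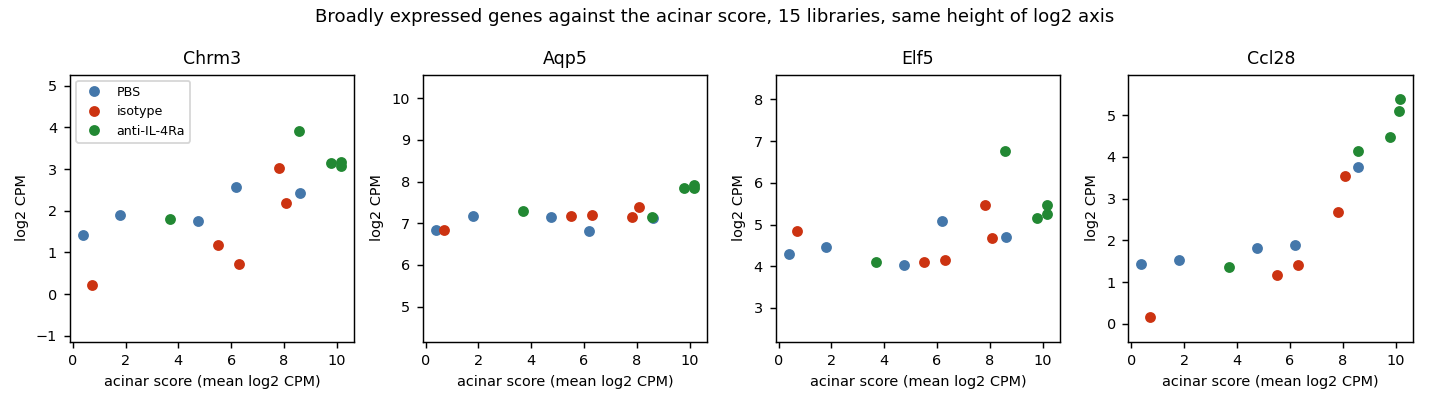
Log2 CPM of the 4 broadly expressed genes (vertical axes, all of the same height) against the acinar score (horizontal axis, mean log2 CPM of the 6 restricted genes) in the 15 libraries, coloured by group. Ccl28 stays at 1.09 to 3.69 CPM in the 8 libraries of lower score and climbs to 41.6 CPM in the others, Aqp5 is nearly level, and 1 anti–IL-4Rα library stands high for Elf5.

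The 10 other genes most like the score were AC192777.2, Gal3st2, Esp4, Esp3, 9530002B09Rik, Dmrt3, Gal3st2c, Gm12886, Esp36 and Gm5570, with Pearson's r of 0.990 to 0.998 over 15 libraries. Esp3, Esp4 and Esp36 encode exocrine gland-secreted peptides, and Gal3st2 and Gal3st2c encode sulfotransferases. Esp3 had 0 counts in at least 1 library and reached 160 CPM, and Gm12886 reached 415 CPM. In all, 104 genes had r above 0.9, 0.547% of 19000. Mucl2, Obp1a, Lcn11 and Scgb2a2, 4 of the tear protein genes that the study names from these same samples, which also include Esp genes, had r of 0.93 to 0.98 with the score. Their summed level ran from 0.0550 to 48900 CPM over the PBS libraries, 0.634 to 31000 over the isotype libraries and 1050 to 146000 over the anti–IL-4Rα libraries. With all 15 libraries, 0 of 4 were called in any comparison in edgeR's quasi-likelihood test. The study instead reports these genes as increased by anti–IL-4Rα against isotype. It used a linear model on log2(FPKM + 1), with outliers named and not every group complete. Its choice of libraries was not repeated here, so the absence of calls does not decide on that report.

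Among genes of stimulus and fluid secretion, 12 of 12 were tested. In anti–IL-4Rα against isotype, Adra1a, an alpha-1 adrenergic receptor, rose by 1.3 ± 0.36 on the log2 scale (edgeR's quasi-likelihood test, adjusted p = 0.0314), and Orai1, a store-operated calcium channel subunit, was at -0.30 ± 0.08 (adjusted p = 0.0213). In isotype against PBS 1 gene rose (Orai1) and 1 fell (Stim1), and in anti–IL-4Rα against PBS 0 were called. Adra1a, Kcnma1 (a potassium channel) and Ano1 (the calcium-activated chloride channel) had the highest r of the list with the score, 0.84, 0.84 and 0.80. Of the 12, 2 were above 0.8, a larger share than the 2.02% over all genes. The lowest were Itpr3 at -0.26, Adra1b at -0.19 and Itpr2 at -0.16. Of 10 tested genes of the secretory machinery, 3 rose in anti–IL-4Rα against isotype and 0 fell. The 3 were Xbp1 and Creb3l2, transcription factors of secretory capacity, and Rab3d, a granule GTPase. Xbp1 rose from 182 ± 33.3 to 327 ± 108 CPM (edgeR's quasi-likelihood test, adjusted p = 0.0290). Rab26, another granule GTPase, was at log2 1.86 with an adjusted p of 0.0646. In the duct list 1 of 5 rose, Krt18, from 63.4 ± 25.3 to 141 ± 46.8 CPM (edgeR's quasi-likelihood test, adjusted p = 0.0313), and its r with the score was 0.90. Krt8, Krt7, Tfcp2l1 and Krt19 were at log2 0.42, -0.11, -0.17 and -0.0 and were not called. Spdef, a factor of goblet and secretory cells, rose in isotype against PBS and in anti–IL-4Rα against PBS, with r of 0.04 with the score. The background for the counts against isotype was 6.73% higher, as above, and 8.13% lower.

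The IgA axis that Ccl28 serves did not follow the score as a whole. Pigr, which carries IgA across the epithelium into tears, had r of 0.81 with the score and rose from 144 ± 55.1 to 376 ± 179 CPM between isotype and anti–IL-4Rα (edgeR's quasi-likelihood test, adjusted p = 0.0291). Igha, the IgA heavy chain, had r of -0.03 with the score, Jchain -0.42 and Mzb1 -0.05, and these 3 plasma cell genes rose in isotype against PBS, where 9.53% of all genes were called higher and 7.49% lower. Jchain ranged over 0.844 to 2.72 CPM with PBS, 8.68 to 60.5 with isotype and 18.3 to 185 with anti–IL-4Rα, highest in anti–IL-4Rα replicate 3, the library of that group with the lowest acinar score. In anti–IL-4Rα against isotype 2 of 10 genes of the list rose (Igha and Pigr) and 1 fell (Prdm1), beside 6.73% and 8.13% of all genes. In anti–IL-4Rα against PBS 4 of 10 rose (Igha, Jchain, Mzb1 and Pigr), where 2.28% of all genes were called higher.

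Of 17 relatives of the members by gene family, 12 were above the filter and tested. None of the 12 had r above 0.8 with the score. Since only 2.02% of all genes did, 12 genes are too few to show a difference from that share. Of the 12, 3 fell in anti–IL-4Rα against isotype, namely Ccl27a, a skin chemokine that shares a receptor with Ccl28 (log2 -0.74 ± 0.14), the water channel Aqp3 (-0.60 ± 0.14) and Car2 (-0.78 ± 0.19), with adjusted p of 0.00743, 0.0181 and 0.0226 in edgeR's quasi-likelihood test. Over all genes 8.13% were called lower in anti–IL-4Rα against isotype. Ccl27a also fell in anti–IL-4Rα against PBS, where 1.44% of all genes were called lower.

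Of 3 tested secreted products of other exocrine glands (Amy1, Ltf and Bpifa2), Amy1, an amylase, fell by 0.86 in isotype against PBS (log2 -0.86 ± 0.14; edgeR's quasi-likelihood test, adjusted p = 0.00228) and rose by 0.74 ± 0.14 in anti–IL-4Rα against isotype (adjusted p = 0.00763), with r of 0.28 with the score. Of 7 genes of gland development, Foxc1 fell in isotype against PBS and Pax6 rose in anti–IL-4Rα against isotype, and 0 of 7 had r above 0.8. Over all genes 7.49% were called lower in isotype against PBS and 6.73% higher in anti–IL-4Rα against isotype.

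Markers of other tissues in the samples were read beside the members. Over all genes, as given above, 9.53% were called higher and 7.49% lower in isotype against PBS, 6.73% and 8.13% in anti–IL-4Rα against isotype, and 2.28% and 1.44% in anti–IL-4Rα against PBS. Of the 5 skeletal muscle genes 5 fell in isotype against PBS (summed level 5590 to 9630 CPM in the PBS group, 3340 to 5090 in the isotype group and 4430 to 6580 in the anti–IL-4Rα group), and 0 of 5 were called in the others. The 8 genes of the meibomian and Harderian list summed to 7400 to 14900, 5160 to 14500 and 10900 to 17400 CPM in the PBS, isotype and anti–IL-4Rα groups with 0 called in any comparison, and 0 of them had r above 0.8 with the score. The 8 corneal and conjunctival epithelium genes summed to 10900 to 13800, 11700 to 15400 and 9050 to 12800 CPM, 1 rose (Krt14) and 1 fell (Aldh3a1) in isotype against PBS, 1 rose (Krt12) and 1 fell (Krt14) in anti–IL-4Rα against isotype, and Krt4 and Krt13 had r of -0.64 and -0.63 with the score. The 5 goblet cell genes summed to 1430 to 2230, 1700 to 2340 and 1150 to 1970 CPM, with 1 higher (Clca1) in isotype against PBS, 2 lower (Clca1 and Fcgbp) in anti–IL-4Rα against isotype and 1 lower (Fcgbp) in anti–IL-4Rα against PBS. The 6 myoepithelial and smooth muscle genes summed to 667 to 1610, 564 to 1200 and 708 to 1470 CPM, and Oxtr, the oxytocin receptor, fell in isotype against PBS and rose in anti–IL-4Rα against isotype. What part these tissues had in the results on the acinar genes was not tested.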

How the data were processed

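RNA-Seq was performed on conjunctival tissue of 15 mice, 1 library each, 5 for each of 3 groups, which were taken with the replicate numbers from the sample labels. The deposited files hold estimated counts per gene, for which the authors used a polyA-selected stranded kit, trimmed adaptors, filtered reads at a quality score of 20, and aligned pairs with a unique position to mouse build B38 (gene model Ensembl release 100) in Omicsoft Array Studio (version, counting method and use of strand not given in the sources used here). The values are neither scaled for depth nor pooled. The authors also name 2 outliers without saying which, so all 15 libraries were kept.

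Values were rounded to whole numbers, and a gene was tested where 5 or more libraries had 10 or more counts. Library totals of 48622246 to 87745024 counts make counting error small beside the spread between libraries. Symbols, positions and exon lengths came from GENCODE M21 (GRCm38), which matched 55227 of 55487 identifiers, and upstream sequence from RefSeq (GRCm38.p6). TMM-scaled counts were fitted in edgeR 4.0.16 (R 4.3.3; quasi-likelihood test, 1 model with a term per group, two-sided), with Benjamini-Hochberg adjustment over all genes tested and a threshold of 0.05. The study fitted a linear model to log2(FPKM + 1) instead, which was run as an alternative in limma 3.58.1. Log2 CPM used a prior count of 2. Exact permutation tests (SciPy 1.17.1) ran over all 252 splits of 5 against 5 libraries. The fitting steps were tested on simulated counts. Alternatives were DESeq2 1.42.0, upper quartile factors, library totals, filterByExpr, no filter, the 2 compared groups only, a replicate block, the acinar score as a covariate, and libraries left out. Library totals and leaving out the lowest library of each group were chosen after seeing the data. Libraries of a group differed by more than counting error (chi-square per degree of freedom of 19.5 to 1070 over 30 pairs).

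The members and the 13 other gene lists were chosen with earlier results of these data known. Named were all 10 members, the 10 other genes with the highest Pearson's r with the acinar score, at most 5 genes of each other list by adjusted p, and defining markers whose levels are given. Muc10 was not matched by symbol, and Smr2 and Tmed6 were below the filter.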

Additional observations from a re-analysis of the deposited data

Results flagged for a closer look

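Within the groups of 5, a library at the edge of its group lay far from the nearest other one for 6 of the 30 combinations of member and group, measured on log2 CPM as the gap divided by the whole range of the group. Chance alone gives about 1 in 20, and members that vary together are not independent. Anti–IL-4Rα replicate 3 was the low library for Bhlha15 (6.13 CPM, ratio 0.769), Dmbt1 (3.63 CPM, 0.757), Pip (44.8 CPM, 0.806) and Lpo (12.9 CPM, 0.790). Isotype replicate 2 was low for Pip (0.0512 CPM, ratio 0.808), and PBS replicate 5 was high for Ccl28 (13.5 CPM, ratio 0.803). The value that a ratio had to exceed was 0.71. Without anti–IL-4Rα replicate 3, Pip, Lpo, Bhlha15 and Dmbt1 were still not called in any comparison.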

How the results depend on the processing

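For isotype against PBS 0 members were called in every setting. The count of members called in anti–IL-4Rα against isotype, 1 as reported, was 4 with DESeq2 (21.2% of all genes called, against 14.9% as reported), 2 without the lowest library of each group (16.7%), and 0 with no filter (5.3%), with limma on log2(FPKM + 1) (13.3%) and with the 2 compared groups only (3.63%). It ran from 0 to 5 when 1 library was left out. For anti–IL-4Rα against PBS, also 1, it was 3 with DESeq2 (10.3% of all genes, against 3.72%), 2 without the lowest libraries (9.27%), 2 with library totals (26.4%), 0 with no filter (0.99%), limma (2.69%) or the 2 groups only (2.87%), and 0 to 3 when 1 library was left out. The acinar score as a covariate gave 0 broadly expressed members in both. Same-numbered libraries of different groups correlated at -0.385 to 0.454 in their deviations, and libraries of unlike number reached -0.666 and 0.577. The numbers were therefore not taken to pair the samples, although such correlations cannot exclude a shared origin. With a replicate block 0 members were called in each comparison, beside 11.1%, 9.78% and 1.64% of all genes for isotype against PBS, anti–IL-4Rα against isotype and anti–IL-4Rα against PBS. With 1 library left out, the log2 fold change of isotype against PBS ran from -0.24 to 2.37 for Bhlha15, -0.12 to 1.94 for Car6, -0.15 to 2.55 for Pip, -0.21 to 2.56 for Lpo, -0.49 to 2.24 for Pnliprp1, -0.08 to 0.34 for Elf5 and -0.79 to 0.58 for Ccl28. No other member and no other comparison changed sign in any setting. Slopes on the acinar score moved by more than their SE for Chrm3 (0.148), Aqp5 (0.026) and Ccl28 (0.323) without isotype replicate 2 and anti–IL-4Rα replicate 3, the 2 libraries farthest from the median of the score centred within groups, and for Ccl28 (0.509) with a score from log2(FPKM + 1). Beyond these fits the cause of each shift was not tested. With 5 libraries a group and SDs of 1.77 to 5.20 on the log2 scale, even an 8.81-fold difference (Pnliprp1 against PBS) did not pass edgeR's quasi-likelihood test. Pip was at 3 and 5 counts in 1 library each, where depth limits its value, and the lowest count of any other member was 26.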

Other observations

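Elf5 was highest in anti–IL-4Rα replicate 2, at 108 CPM. The 10 genes most like Elf5 over the 15 libraries, a choice made after its values were seen, were Crot, Slc25a10, Irx1, BC006965, Osbp, Tomm70a, Pi4k2b, Ccser1, Fam210b and Tecpr2, with Pearson's r of 0.934 to 0.956 on log2 CPM centred within groups. Irx1, a homeobox factor, ran from 12 to 158 CPM around a median of 16.3, and Slc25a10, a mitochondrial dicarboxylate carrier, from 42.0 to 193 CPM around a median of 53.8. The same library was also the highest of all 15 for Fasn (3120 CPM), the fatty acid synthase, Pparg (61.4 CPM), a factor of lipid-secreting cells, Sox10 (80.9 CPM) and Kcnn4 (75.8 CPM), genes picked out here after their values were seen. Fasn and Pparg belong to the meibomian and Harderian list of 8 genes. Of that list, Awat2, Soat1 and Elovl4 had their highest level in a PBS or isotype library (1250, 470 and 1920 CPM). Elovl3, Mc5r and Scd1, like Fasn and Pparg, had theirs in anti–IL-4Rα replicate 2 (840, 51.2 and 10500 CPM). The acinar score of anti–IL-4Rα replicate 2, 8.58, was the fourth of the 5 in its group. Chrm3 had its highest level in this library as well (14.9 CPM), and Aqp5 had the lowest level of its group there (142 CPM).

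The endoplasmic reticulum gene Derl3, listed with the plasma cell genes, went with the acinar score (r of 0.96) and not with Jchain, at 0.389 to 26.6 CPM in the PBS group, 0.890 to 19.6 in the isotype group and 3.89 to 76.1 in the anti–IL-4Rα group. It was not called in any comparison (edgeR's quasi-likelihood test, adjusted p of 0.154, 0.155 and 0.815).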
